A study of Mus musculus with 6 samples.

Results

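The genes of MHC class II antigen presentation were followed in mouse skin from 3 wild-type and 3 knock-in samples, each measured on 1 Affymetrix array. They were taken as all probe sets whose only annotated symbol was H2-Aa, H2-Ab1, H2-Eb1, H2-DMa, H2-DMb1, H2-DMb2, Cd74, Ciita, Ctss or Ifi30. This gave 19 probe sets of 9 genes, out of 34945 probe sets of 18193 genes with a symbol of their own. H2-DMb1 had no probe set of its own, since the 2 probe sets annotated to it also carry H2-DMb2, and it was not analysed here. Both groups had the C57BL/6 background. Wild-type samples had the source name C57BL/6 and the genotype WT, and knock-in samples the source name KAB6 and the genotype KA. Arrays are numbered 1 to 3 within a group as in the sample titles. The labels do not name the changed gene, so its own level could not be checked, and they give no treatment, age or sex. They also do not say whether the samples came from separate animals, so p-values measure only the spread between these 6 samples.

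MHC class II molecules carry peptides from proteins taken up by endocytosis to the cell surface, where CD4+ T cells read them. An alpha and a beta chain assemble in the endoplasmic reticulum with the invariant chain, which blocks the groove and sorts the complex to endosomes. Proteases trim the invariant chain to a short fragment, and H2-DM exchanges that fragment for peptide. In resting skin the molecules are found mainly on Langerhans cells of the epidermis and on dendritic cells and macrophages of the dermis, and interferon-gamma can induce them in keratinocytes.

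The arrays carried the sign of a second difference between the groups. Xist, the RNA of the inactive X chromosome, had signals of 27.8 to 32.5 in wild-type and 3442 to 4005 in knock-in, while the Y-linked gene Eif2s3y had 639 to 721 and 4.43 to 5.45. Genotype and sex therefore cannot be told apart in any value below. Skin markers were present, with summed keratinocyte marker signals (6 genes) of 32855 to 38656 in wild-type and 36575 to 48451 in knock-in. The ratio of 3' to 5' actin control signals, a sign of RNA integrity, was 1.24 ± 0.0358 in wild-type and 1.23 ± 0.0385 in knock-in (SD, n = 3 each), but the 5' control for 18S ribosomal RNA gave 1314 to 2286 and 166 to 766. The part of that control's difference in the results was not tested.

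The classical class II chains, the invariant chain and the 2 measured H2-DM chains were all lower in knock-in skin, by 3.24 to 6.85 times in mean signal at the probe sets that passed the test, whereas the protease gene Ctss was higher and Ifi30 did not pass. Signals were compared as log2(signal + 16) with limma across all 23153 probe sets above the low-signal limit, with Benjamini-Hochberg adjustment and a threshold of 0.05. A negative log2 difference means a lower value in knock-in on that scale, and ± after it gives the standard error. Of the 19 probe sets, 15 were bright enough to be tested, and 12 of these, from 6 genes, passed lower, against 17.3% of all probe sets tested. Another passed higher, where the background was 13.0%, so 13 passed in all, beside 30.3% in either direction. Of those 15, 12 lay above the array median on all 6 arrays, and the others, those of H2-DMb2, did not. Their median log2 difference was -1.84, beside -0.06 over all probe sets tested. Since skin was measured in bulk, fewer class II-positive cells and less RNA per cell cannot be told apart.

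H2-Aa encodes the alpha chain of I-A, the one complete class II molecule of C57BL/6 mice. Its brightest probe set (1435290_x_at) had signals of 2731, 4681 and 4229 on the wild-type arrays and 846, 1047 and 1278 on the knock-in arrays. The lowest wild-type value was above the highest knock-in value. The mean fell from 3880.2 ± 1021 to 1057 ± 216 (SD, n = 3 each), 3.67 times lower, with a log2 difference of -1.84 ± 0.21 (limma, adjusted p = 2.98e-04). The other 3 probe sets of H2-Aa fell further. 1452431_s_at went from 2261 ± 499 to 445 ± 128 (-2.32 ± 0.21), 1438858_x_at from 2089 ± 818 to 415 ± 13.8 (-2.20 ± 0.25) and 1443783_x_at from 321 ± 98.8 to 46.8 ± 7.25 (-2.38 ± 0.22). The 4 probe sets of H2-Aa thus shared the direction and spanned log2 differences from -2.38 to -1.84. All 4 have names ending in _x_at or _s_at, so H2-Aa was not tested in the setting that left such probe sets out.

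H2-Ab1 encodes the I-A beta chain, the partner of H2-Aa. Its brightest probe set (1450648_s_at) gave 1141, 2253 and 1649.9 in wild-type and 434, 485 and 639 in knock-in, with no overlap. The log2 difference was -1.63 ± 0.23 (limma, adjusted p = 9.64e-04). The other probe sets, 1451721_a_at and 1425477_x_at, fell from 1392 ± 358 to 341 ± 86.1 (-1.97 ± 0.21) and from 925 ± 334 to 222 ± 60.4 (-1.94 ± 0.26). Because the probe sets of one gene differed by as much as the genes did, no order among the chains is given.

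H2-Eb1 encodes the beta chain of I-E, which is not displayed in C57BL/6 mice because their H2-Ea gene is defective. Its transcript (1417025_at) was nevertheless bright, at 1841, 3249 and 2680.4 in wild-type, and it was 424, 518 and 696 in knock-in. The groups were again apart, at 4.74 times lower in knock-in, with a log2 difference of -2.20 ± 0.22 (limma, adjusted p = 1.65e-04). H2-Ea itself stayed between 1.57 and 19.6 on the 6 arrays at its brightest probe set, below the array median throughout.

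Cd74 encodes the invariant chain. Its single probe set (1425519_a_at) read 1316, 2473 and 2211 in wild-type and 408, 489 and 653 in knock-in. The mean fell from 2000.2 ± 607 to 517 ± 125, 3.87 times lower and without overlap, with a log2 difference of -1.90 ± 0.24 (limma, adjusted p = 5.17e-04). Together, all 9 probe sets of H2-Aa, H2-Ab1, H2-Eb1 and Cd74 passed lower, with adjusted p from 1.02e-04 to 9.64e-04. The drop of Cd74, which lies on another chromosome than the H2 genes, was within the range of the drops of the H2-A and H2-E chains.

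**Figure D1:**
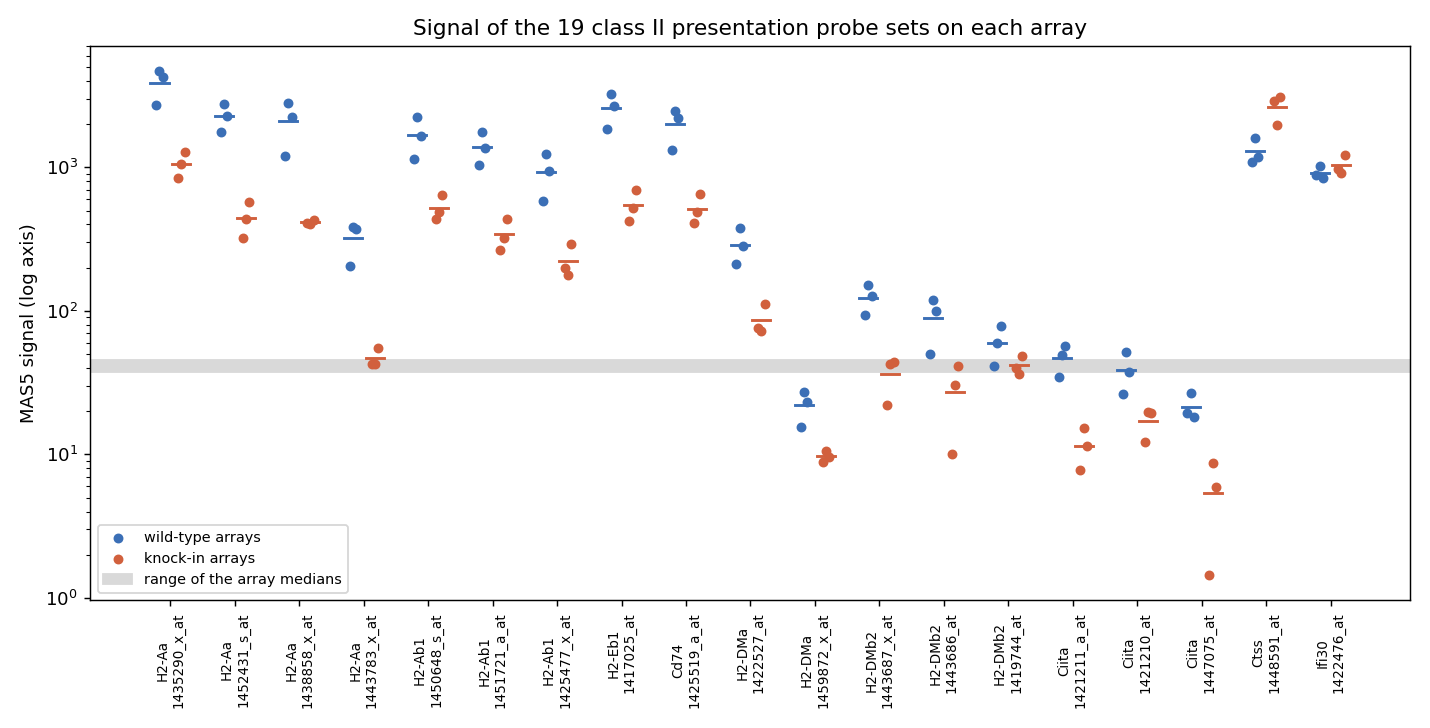
MAS5 signal on a log axis for the 19 probe sets, with a point per array (blue wild-type, orange knock-in), a bar at each group mean and a grey band for the range of the array medians (37.7 to 45.8). The orange points lie below the blue ones for every probe set except those of Ctss, where they lie above, and of Ifi30 and H2-DMb2 1419744_at, where they overlap.

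H2-DM is the peptide exchange factor of the endosome, made of an alpha and a beta chain. H2-DMa (1422527_at) gave 211, 376 and 282 in wild-type and 75.8, 72.2 and 111 in knock-in. It was 3.36 times lower without overlap, a log2 difference of -1.56 ± 0.21 (limma, adjusted p = 8.05e-04). Its other probe set, 1459872_x_at, was too dim to test, at 21.9 ± 5.91 and 9.71 ± 0.874.

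Mice carry a pair of DM beta genes, and the probe sets of H2-DMb2 disagreed. 1443687_x_at gave 94.3, 151 and 126 in wild-type and 22.2, 42.4 and 44.0 in knock-in, a log2 difference of -1.43 ± 0.22 (limma, adjusted p = 0.00148). 1443686_at went from 89.5 ± 35.5 to 27.4 ± 15.9 (-1.29 ± 0.33, adjusted p = 0.0170 by limma). That call was lost when wild-type array 2 (adjusted p = 0.0557) or wild-type array 3 (0.0704) was left out, and over 15 alternatives its adjusted p ran from 0.00366 to 0.0704. The third probe set, 1419744_at, had signals of 41.0 to 78.3 in wild-type and 36.3 to 48.8 in knock-in, which overlapped, and its difference of -0.37 ± 0.20 did not pass (adjusted p = 0.196). H2-DMb1 and H2-DMb2 are close copies, so the level of the single gene is uncertain.

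Ciita encodes the class II transactivator, a coactivator that binds no DNA itself and is the master switch of class II transcription. Its 3 probe sets were too dim for the test, since none exceeded the array median on 3 arrays. The brightest, 1421211_a_at, gave 34.5, 49.0 and 56.7 in wild-type and 7.74, 15.4 and 11.4 in knock-in, without overlap. 1421210_at gave 26.2, 51.7 and 37.8 against 12.2, 19.6 and 19.5, and 1447075_at gave 19.4, 27.0 and 18.2 against 1.45, 8.75 and 5.89. Each was lower on all 3 knock-in arrays (exact permutation test, two-sided, p = 0.10 each, which is the lowest value 3 against 3 can give). Fitted with no limit on low signals, where 7.81% of 45037 probe sets passed lower, 1421211_a_at had a log2 difference of -1.18 ± 0.20 (limma, adjusted p = 0.00696) and 1447075_at of -0.82 ± 0.18 (0.0206), while 1421210_at missed the threshold at -0.70 ± 0.22 (0.0678). The added 16 shrinks the differences of signals this dim. Over all 19 probe sets, tested or not, 16 were lower on every knock-in array than on any wild-type array, beside 19.6% of all probe sets, and 1 was higher, beside 13.1%.

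Ciita acts through proteins that sit on an X box and a Y box before the start of class II and DM genes: the RFX complex and CREB on the X box, and NF-Y on the Y box. The 4 stretches below are shown because these genes are the kind Ciita acts on. They come from the RefSeq promoter windows of build GRCm38.p6 (250 bases before to 50 after an annotated start), in which 7 of the 10 genes were found, with 8 windows. The H2-DMb2 stretch lies inside the annotated span of that gene (34143229 to 34151553), so the start of its window is not the outer end of the gene. H2-Ab1, Cd74 and Ciita were not among them. In capitals are the letters TGATTGG (Y box, last in each line) and, before it, GATGATG (from the X box), or TGACGTCA (the CREB-type part of an X box) in H2-Aa. The letters were chosen with these windows in view and searched on both strands.
H2-Aa, chr17:34287857-34287907, minus strand: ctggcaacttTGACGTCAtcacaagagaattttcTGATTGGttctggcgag
H2-Eb1, chr17:34305772-34305822, plus strand: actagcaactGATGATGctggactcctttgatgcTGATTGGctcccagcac
H2-DMb1, chr17:34153093-34153144, plus strand: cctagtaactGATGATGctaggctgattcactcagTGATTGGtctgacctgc
H2-DMb2, chr17:34145122-34145173, plus strand: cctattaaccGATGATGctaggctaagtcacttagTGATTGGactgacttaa

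TGATTGG occurred in 7.82% of all 32851 windows, GATGATG in 3.48% and TGACGTCA in 1.79%. H2-Aa, H2-Eb1 and H2-DMb2, which hold a Y box, are 3 of the genes that fell. The windows of Ctss and Ifi30, which did not fall, and of H2-DMa, which did, held none of these 3 runs of letters. H2-DMb1 is shown as the neighbour of H2-DMb2 and has no value here. A match is only a run of letters and does not show binding.

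Ctss encodes cathepsin S, the endosomal protease that makes the last cuts in the invariant chain of dendritic cells and macrophages. It moved the opposite way to the chains. Its signals were 1081, 1608 and 1187 in wild-type and 2898, 1971 and 3073 in knock-in, so every knock-in array was above every wild-type array. The mean rose from 1292 ± 279 to 2647 ± 592, 2.05 times, with a log2 difference of 1.02 ± 0.19 (1448591_at; limma, adjusted p = 0.00384).

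Ifi30 encodes GILT, a thiol reductase that opens disulfide bonds of antigens in endosomes. Its signals (1422476_at) were 879.9, 1016 and 848 in wild-type and 979, 906 and 1214 in knock-in, which overlapped. The log2 difference of 0.17 ± 0.13 did not pass (limma, adjusted p = 0.346). The level of Ctss relative to the mean of H2-Aa, H2-Ab1, H2-Eb1 and Cd74, taken inside each array on the log2 scale, went from -0.87 ± 0.24 to 2.04 ± 0.41 (SD, n = 3 each), a change of 2.91 with no overlap (two-sided exact permutation p = 0.10, the smallest possible). For Ifi30 the same quantity went from -1.34 ± 0.38 to 0.72 ± 0.19, also apart (p = 0.10 in the same exact test). For H2-DMa it went from -2.98 ± 0.11 to -2.65 ± 0.15, apart as well (exact p = 0.10) but by only 0.33.

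Class I presentation, the route for peptides from proteins inside the cell, served as the comparison nearest in kind. Its 15 measured genes had a median log2 difference of 0.03. The immunoproteasome subunit Psmb9 fell (-0.84 ± 0.15, adjusted p = 0.00295 by limma), and the chaperones Calr (0.41 ± 0.10) and Pdia3 (0.28 ± 0.09) rose. Calr did not pass with the replicate number as a block (adjusted p = 0.0535), and Pdia3 failed in 11 of 18 alternatives, among them leaving out wild-type array 1, 2 or 3 (0.0766, 0.0990 and 0.107) and leaving out knock-in array 1 or 3 (0.128 and 0.121). The other 12 did not pass, among them the peptidase Erap1 (0.32 ± 0.12, adjusted p = 0.0808). On leaving out wild-type array 1, Erap1 passed higher (0.0485), and the class I transactivator Nlrc5 passed lower at -0.45 (0.0422), against -0.24 on all arrays. Erap1 also passed higher with quantile normalization (0.0399), median centring (0.0304) and array weights (0.0496). After median centring 4 of the 15 passed higher, Calr, Pdia3, Erap1 and H2-D1 (0.28, adjusted p = 0.0419 by limma), and the median was 0.16.

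Inside each array, the mean of H2-Aa, H2-Ab1, H2-Eb1 and Cd74 was set against the mean of the class I genes H2-K1, H2-D1, B2m and Tap1. The log2 difference was -0.47, 0.07 and 0.00 on the wild-type arrays and -2.25, -1.86 and -1.73 on the knock-in arrays. The groups did not overlap, and the change was -1.81 (two-sided exact permutation p = 0.10, the smallest that 3 against 3 allows). A ratio inside an array depends little on how that array was scaled, and the change stayed between -1.98 and -1.66 with any array left out.

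**Figure D2:**
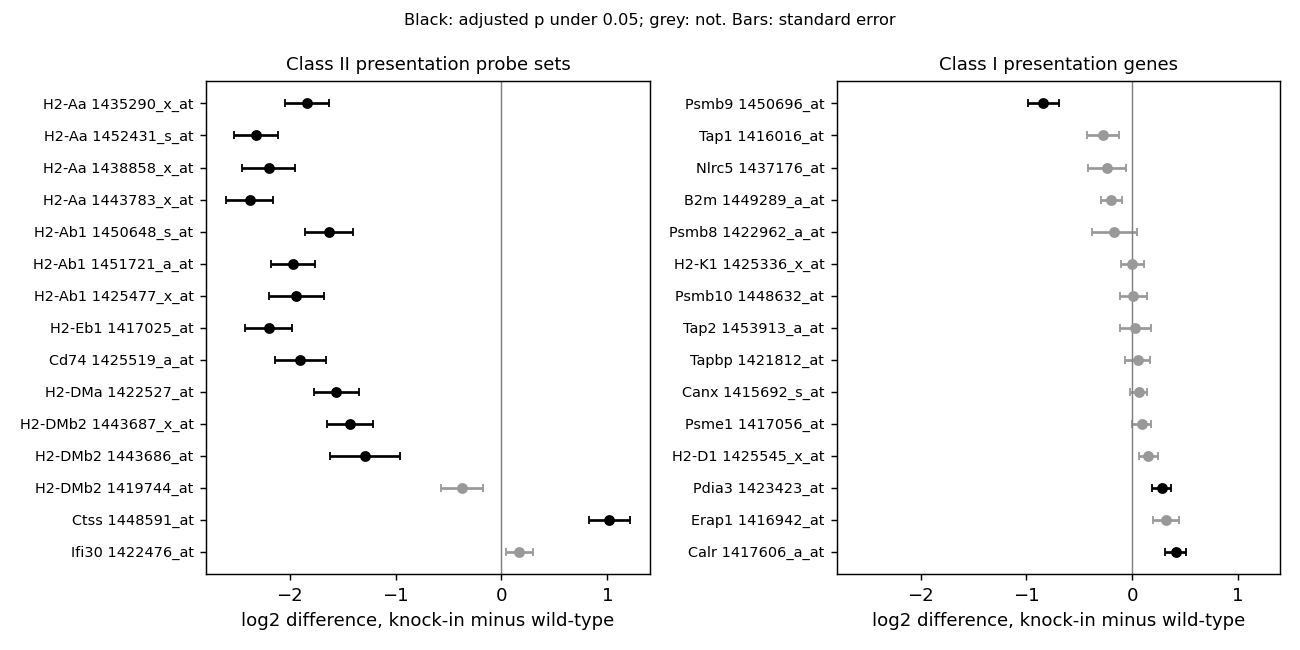
Log2 differences (knock-in minus wild-type, log2(signal + 16) scale) with standard errors for the 15 tested class II presentation probe sets (left) and the 15 class I presentation genes (right). Black points passed at an adjusted p of 0.05 and grey ones did not. The class II chains, Cd74 and H2-DMa lie between -2.38 and -1.56, and all class I genes between -0.84 and 0.41.

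Further genes of the class II route did not share a direction. Of 13 tested, 3 rose, 3 fell and 7 did not pass, with a median of 0.13. Lgmn, the asparagine endopeptidase that starts invariant chain cleavage, rose from signals of 527 to 699.9 to signals of 1466 to 2559.7 (1.66 ± 0.19, adjusted p = 3.27e-04 by limma). The lysosomal cathepsins Ctsl (0.45 ± 0.10) and Ctsz (0.57 ± 0.15) also rose, although the call of Ctsz was lost on leaving out wild-type array 3 (adjusted p = 0.0719) or knock-in array 3 (0.0718) and with the replicate block (0.0516). Cd83, a surface protein of mature dendritic cells that stabilises class II, fell from 65.7, 95.9 and 86.9 to 29.9, 25.1 and 21.1 (-1.25 ± 0.17, adjusted p = 8.60e-04 by limma). Its signal was above the array median on the wild-type arrays only. Sppl2a, the membrane protease that clears the last invariant chain stub (-0.52 ± 0.10), and Marchf8, a ubiquitin ligase of membrane proteins (-0.58 ± 0.09), fell too. H2-Oa and H2-Ob, the chains of the DM inhibitor H2-O, were below the array median on every array. After median centring 5 of the 13 rose, with Ctsb (0.26, adjusted p = 0.0390) and Ctsd (0.35, 0.0277) added.

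The DNA-binding and co-activating partners of Ciita showed small differences. Of 11 tested, 3 fell and 8 did not pass, with a median of -0.15. Those that fell were the acetyltransferase Kat2b (-0.40 ± 0.10), Creb5 (-0.66 ± 0.19) and Creb1 (-0.37 ± 0.12), by limma with adjusted p of 0.0131, 0.0295 and 0.0366. None of these 3 calls held after median centring of the arrays, on leaving out wild-type array 3 or on leaving out knock-in array 3. Creb1 also failed on leaving out wild-type array 1 or 2, and both Creb1 and Creb5 on leaving out knock-in array 1. The acetyltransferase Ep300 had -0.28 ± 0.12 and did not pass. The RFX subunits Rfx5 (-0.28 ± 0.14), Rfxap (0.15 ± 0.14) and Rfxank (0.02 ± 0.15), named after their values were seen, did not pass either.

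Interferon-gamma is the main inducer of Ciita outside professional antigen-presenting cells. Of 8 tested genes of its pathway, the receptor chain Ifngr1 rose (0.58 ± 0.17, adjusted p = 0.0302 by limma) and the other 7 did not pass, among them Ifngr2 (-0.15 ± 0.12), Jak1 (0.25 ± 0.14) and Jak2 (0.12 ± 0.13). The call of Ifngr1 was lost on leaving out wild-type array 1 or 3 (adjusted p = 0.0727 and 0.0604) or knock-in array 1 or 3 (0.0770 and 0.117), with the replicate block (0.0547) and with no limit on low signals (0.0596). Ifng itself had signals of 0.481 to 4.42 over the 6 arrays, far below the array medians.

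Markers of the cells that carry class II moved in different directions. Cd207, the langerin of Langerhans cells, fell from 48.5, 106 and 78.7 to 19.2, 21.3 and 4.75 (-1.59 ± 0.29, adjusted p = 0.00343 by limma). It was above the array median, and so entered the test, on the wild-type arrays only. Of the other 3 Langerhans markers, Epcam fell (-0.38 ± 0.10) and Cd24a (0.51 ± 0.09) and Mfge8 (0.41 ± 0.12) rose, and keratinocytes also make Epcam and Cd24a. Epcam did not pass after median centring (adjusted p = 0.138), with the replicate block (0.0674) or on leaving out knock-in array 1 or 3 (0.0596 and 0.0508), and Mfge8 did not on leaving out wild-type array 1 or 3 (0.0681 and 0.0647) or knock-in array 2 or 3 (0.0808 and 0.0551). The summed signal of the 4 markers was 4189 to 4441 in wild-type and 4740.2 to 5493 in knock-in, but Cd207 gave only 77.6 ± 28.5 of it in wild-type and 15.1 ± 9.01 in knock-in (means, n = 3 each). The sum therefore reads mostly Cd24a, Epcam and Mfge8 and does not follow Cd207.

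Of 9 dendritic cell markers with a probe set, 5 were tested. Cd209a, a lectin of dermal dendritic cells, fell from 141, 242 and 194 to 66.2, 64.6 and 73.4 (-1.28 ± 0.18, adjusted p = 9.24e-04 by limma). The integrin Itgax fell (-0.55 ± 0.16, adjusted p = 0.0318), a call lost in 9 of 17 alternatives, including those that left out wild-type array 2 or 3 (0.107 and 0.0986) or knock-in array 1, 2 or 3 (0.0652, 0.0693 and 0.0877). The lectin Clec10a, which macrophages also carry, rose (1.26 ± 0.24), and Irf4 (-0.33 ± 0.21) did not pass, although it passed lower on leaving out wild-type array 1 (-0.57, adjusted p = 0.0395). Itgae (-0.18 ± 0.19) did not pass either. Ccr7, Flt3, Xcr1 and Zbtb46 were below the array median on every array. The summed signal of the 9 was 909 to 1509.6 in wild-type and 1499 to 2352 in knock-in, of which Clec10a alone gave 521 to 939 and 1223 to 2071.

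Of 10 macrophage markers tested, 5 rose and the other 5, Adgre1, C1qb, C1qc, Cd68 and Csf1r (0.07 ± 0.19), did not pass. The median was 0.56, and their summed signal was 6340.1 to 9230.1 in wild-type and 10807 to 17300.3 in knock-in. The endotoxin co-receptor Cd14 rose by 4.20 ± 0.22, the complement gene C1qa by 1.07 ± 0.16, the mannose receptor Mrc1 by 1.04 ± 0.20 and the engulfment receptor Mertk by 0.45 ± 0.13, the last not passing when wild-type array 1 or 3 or knock-in array 3 was left out (adjusted p = 0.0782, 0.0825 and 0.113). Fcgr1 rose by 0.59 ± 0.19 (adjusted p = 0.0389 by limma), with signals of 73.2 to 108 in wild-type and 106 to 171 in knock-in, which overlapped. Its call was lost in 7 of 18 alternatives, including those that left out wild-type array 1 or 3 or knock-in array 1 or 3. The number that rose was 3 on leaving out wild-type array 1 or 3 or knock-in array 3, with the replicate block and with no limit on low signals, and it was 8 on leaving out knock-in array 2 and after median centring. All 6 neutrophil markers with a probe set rose, with a summed signal of 602 to 833 in wild-type and 14944 to 18879 in knock-in, where S100a8 (4.26 ± 0.15), S100a9 (5.72 ± 0.18), Mmp8 (4.55 ± 0.23) and Csf3r (2.07 ± 0.20) had the smallest p. In knock-in that sum reads mostly S100a8 and S100a9, with mean signals of 9374 and 6055, against 749 for Mmp8 and 184 for Csf3r. Among 3 monocyte markers Chil3 (7.21 ± 0.26) and Plac8 (2.24 ± 0.16) rose, with Ccr2 at -0.36 ± 0.27, and their summed signal went from 411 to 618 up to 3969 to 8234. In knock-in the monocyte sum reads mostly Chil3, with a mean signal of 4655 against 1401 for Plac8 and 185 for Ccr2. Chil3, Mmp8 and Csf3r were above the array median on the knock-in arrays only.

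B cells, which also carry class II, gave little signal in either group: all 5 markers with a probe set, Cd22, Cd79a, Cd79b, Ms4a1 and Pax5, were below the array median on every array, with summed signals of 83.3 to 106 and 62.2 to 82.7. Of 5 T cell markers with a probe set 2 were tested, and Cd3d, Cd3e and Cd4 were too dim. Cd3g fell (-1.66 ± 0.18, adjusted p = 2.49e-04 by limma) while Cd8a (-0.13 ± 0.15) did not pass. Cd3g was above the array median on the wild-type arrays only. The summed signal of the 5 was 214 to 249 in wild-type and 93.5 to 137 in knock-in. Of the 6 keratinocyte markers, Krt5 (0.52 ± 0.09, adjusted p = 0.00216 by limma) and Krt14 (0.73 ± 0.10, 8.90e-04) rose. The other 4, Krt1 (0.39 ± 0.18), Krt10 (-0.14 ± 0.16), Lor (-0.17 ± 0.18) and Flg (-0.61 ± 0.25), did not pass. Flg passed lower on leaving out wild-type array 3 (adjusted p = 0.0117) and with the replicate block (0.0426). Lor passed lower on leaving out knock-in array 1 (0.0190). The part of these cell type markers in the class II result was not tested.

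The general leukocyte marker Ptprc (CD45) gave 364, 585 and 449.8 in wild-type and 435, 377 and 595 in knock-in, which overlapped (0.01 ± 0.20, adjusted p = 0.979 by limma). Cd53 rose (1.30 ± 0.22), and Laptm5 (0.46 ± 0.19) and Coro1a (0.46 ± 0.20) did not pass. Both passed higher on leaving out knock-in array 2 (adjusted p = 0.0226 and 0.0379) and after median centring (0.0377 and 0.0468), and Laptm5 also on leaving out wild-type array 2 (0.0473). The class II mean relative to the mean of these 4 genes was 2.17, 2.49 and 2.59 on the wild-type arrays and -0.36, 0.32 and -0.05 on the knock-in arrays, a change of -2.45 on the log2 scale (two-sided exact permutation p = 0.10, the smallest possible). Set against the 5 tested dendritic cell markers the change was -1.68, from 3.87, 4.09 and 4.13 to 1.98, 2.45 and 2.63 (exact p = 0.10). Class II was thus lower in knock-in relative to both marker means. The dendritic mean mixes Cd209a (-1.28), which fell, with Clec10a (1.26), which rose. Its members Itgax, Irf4 and Itgae were dim, with wild-type means of 62.5, 53.8 and 64.1. The constant added before taking logs shrinks the differences of dim signals more than those of the bright class II chains. Cd207 (-1.59) is in neither mean. Whether class II fell by more than the cells that carry it was not tested.

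**Figure D3:**
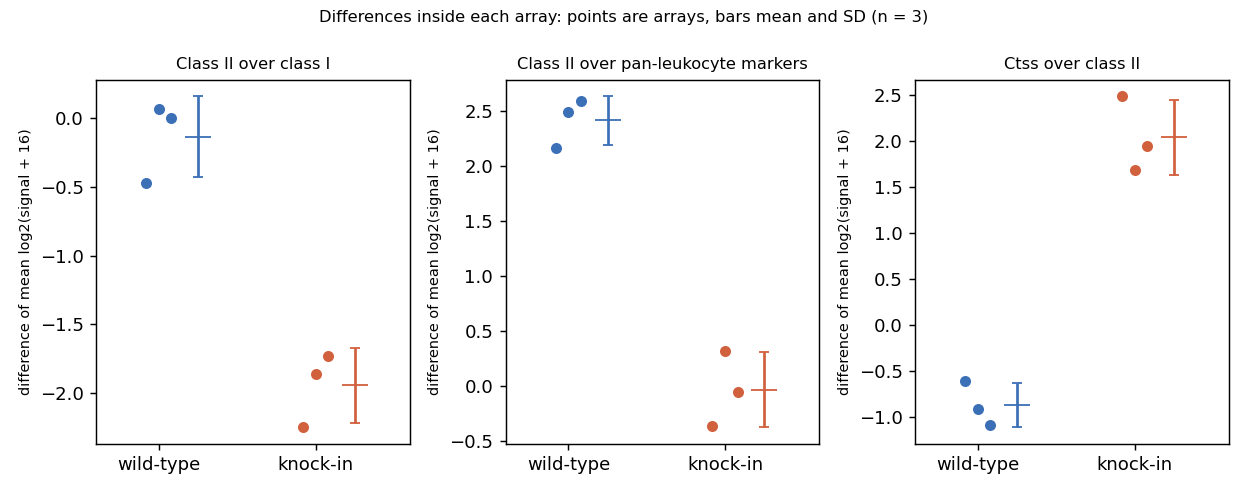
Differences of mean log2(signal + 16) inside each array, with a point per array and the mean and SD of each group (n = 3). The mean of H2-Aa, H2-Ab1, H2-Eb1 and Cd74 is set against 4 class I genes (left) and against 4 pan-leukocyte markers (middle), and Ctss against the class II mean (right). The groups are apart in all 3 panels, with changes of -1.81, -2.45 and 2.91.

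**Figure D4:**
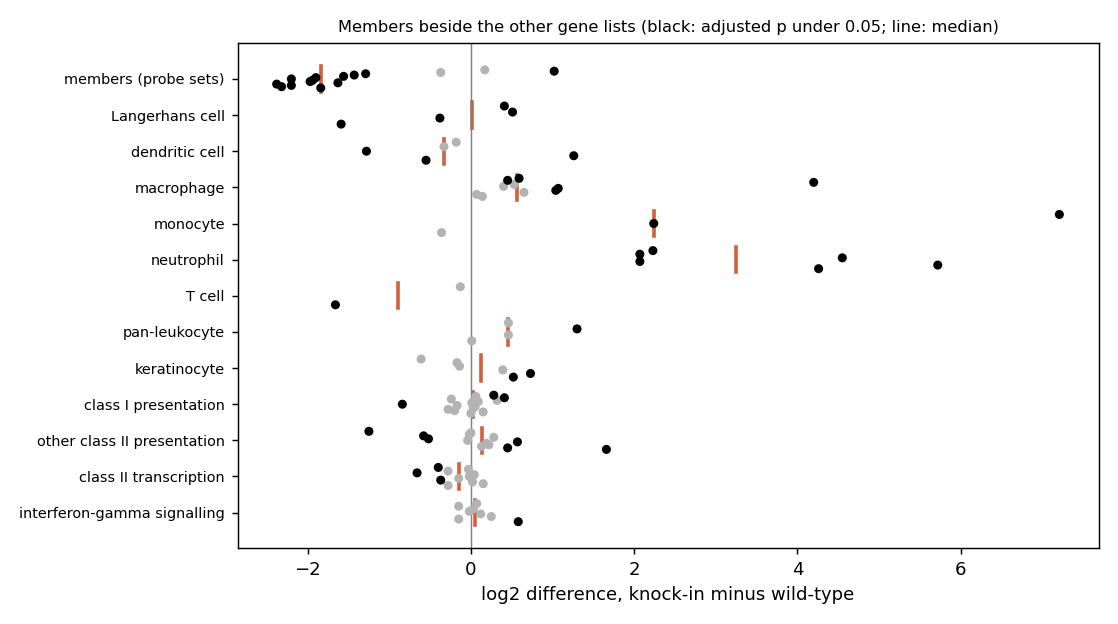
Log2 differences (knock-in minus wild-type) of the 15 tested class II presentation probe sets and of the tested genes of the other lists, with a point per probe set or gene (black passed at an adjusted p of 0.05, grey did not) and a line at each median. The class II median of -1.84 is the lowest, and the neutrophil median of 3.24 the highest, of the rows shown.

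Within a group the members moved together from array to array. Of the 16 probe sets that were lower on all knock-in arrays, wild-type array 1 was the lowest of its group for 15 and wild-type array 2 the highest for 15. Among knock-in arrays, array 1 was the lowest for 12 and array 3 the highest for 12. Wild-type array 1 was also the lowest of its group, and array 2 the highest, for Ptprc, Cd209a and the macrophage receptor Csf1r (1555, 2429.8 and 2163), the last named after its values were seen. Their knock-in order differed from that of most members. Array 3 was again the highest, but array 2 was the lowest for each (Csf1r 2032, 1729 and 2707), as for only 4 of the 16 probe sets. For Cd209a this rests on 64.6 on array 2 against 66.2 on array 1. Cd3g, picked below for its likeness to class II, kept the order of most members in both groups. Its signals were 76.0, 118 and 99.8 in wild-type and 16.6, 18.8 and 24.1 in knock-in. The share of all probe sets with these orders was not counted.

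Several genes outside the route had nearly the same profile over the 6 arrays as the mean of H2-Aa, H2-Ab1, H2-Eb1 and Cd74. Of 11672 other genes, 306 (2.62%) had a Pearson r of 0.95 or more with it. All 6 arrays share the group difference, so this r mostly reads the groups. The 8 closest were Gm15545 (0.999), Gpha2, a glycoprotein hormone subunit (0.996), BC064078 (0.996), the muscle protein Ky (0.995), the proton pump subunit Atp6v1c2 (0.995), the membrane peptidase Mme (0.994), Fcgbp (0.994) and the T cell receptor component Cd3g (0.994). With each group's mean taken off, their r lay between 0.940 and 0.989. Their selection by r over the same arrays largely fixes this, and the share of all genes reaching it was not counted. Among the members, r with this mean was 0.993 for H2-DMa, 0.986, 0.945 and 0.771 for H2-DMb2 1443687_x_at, 1443686_at and 1419744_at, -0.763 for Ctss and -0.292 for Ifi30. Ky fell from 149.9 ± 51.5 to 5.11 ± 5.33 and Cd3g from 98.1 ± 21.3 to 19.8 ± 3.86, while Gm15545 fell only from 50.2 ± 5.88 to 30.5 ± 2.57, so the likeness is in shape and not in size.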

How the data were processed

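The deposited table holds 1 linear signal intensity for each of 45101 probe sets on 6 single-channel arrays, made by the authors with MAS5 per the submitters' processing notes. No source used here gives its version or settings. The 2% trimmed mean was 150 on every array, so the intensities were used as deposited. The 64 control probe sets were left out, and 23153 probe sets above their array's median on at least 3 arrays were tested. Symbols came from the platform annotation.

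Values of log2(signal + 16) were fitted with limma 3.58.1 in R 4.3.3 (lmFit, eBayes with trend, two-sided) and adjusted over all probe sets tested. With 3 arrays a group, the standard error of a difference had a median of 0.140. Other lists used the probe set of highest mean for each gene. The procedure was tested on simulated data. Single ratios had exact permutation tests (scipy 1.17.1). The members, lists and alternatives were chosen with earlier results of these data known. By rule, the text names all members, up to 4 genes of each list with the smallest unadjusted p, any gene that a count of 5 or fewer refers to, and the 8 genes of most similar profile. H2-Ea, H2-Oa, H2-Ob, Ifng, Nlrc5, Ctsb, Ctsd and the RFX genes fall outside it and were named after their values were seen, as was Csf1r. Arrays of equal replicate number did not deviate together (correlations of deviations -0.238, -0.338 and -0.049), so no pairing was used in the main fit. This does not show whether the samples were paired.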

Additional observations from a re-analysis of the deposited data

How the results depend on the processing

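Of 247 refitted values of the 15 tested member probe sets, 245 kept their direction and their side of the threshold. The exceptions were H2-DMb2 1443686_at without wild-type replicate 2 and without wild-type replicate 3. The 12 probe sets that passed lower became 6 of 8 genes with 1 probe set per gene or the mean over probe sets, and 5 of 8 probe sets without those ending in _s_at or _x_at, where the median was -1.43 in place of -1.84. These settings test fewer features, and without those endings H2-Aa had no probe set left. With an array left out, 11 to 12 passed lower and 1 higher, and the median lay between -2.08 and -1.69. Over all probe sets 7010 passed, 4011 of them lower. With 1 probe set per gene 3637 genes passed, 1907 lower, and with the mean over probe sets 3712, 2013 lower. Without the _s_at and _x_at endings 6157 probe sets passed, 3575 lower. The share of all features tested is not given for these settings. With an array left out the same 23153 probe sets were tested. Of these 4418 to 6569 passed, the lowest without wild-type replicate 3, with 2393 to 3709 lower and 2025 to 2860 higher. After median centring the split went from 2999 higher and 4011 lower to 4423 and 2501, and the median of all probe sets moved by 0.13. The class II to class I change lay between -1.98 and -1.66 with an array left out. With the replicate block, 12 member probe sets passed lower and 1 higher, 4888 probe sets passed in all, and the class II to class I change of -1.81 had an exact sign-flip p of 0.25, the smallest that 3 pairs allow. Arrays of equal replicate number did not deviate together, which does not show whether the samples were paired.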
